A study of Mus musculus with 48 samples.

Results

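The clustered histone genes were taken as every array probe, control spots aside, whose gene name began with Hist1h, Hist2h, Hist3h or Hist4h. There were 55 such probes for 49 gene names, out of 55681 probes for 34844 names on the array. The family was chosen by a value in these data, because Hist3h2ba was among the largest falls after ovariectomy in blood, so the ovariectomy effect in blood is given below as a description and supports nothing. By histone type the set held 6 probes for H1, 15 for H2A, 12 for H2B, 8 for H3 and 14 for H4. The gene names place 40 probes in the large cluster on chromosome 13, 10 on chromosome 3, 3 on chromosome 11 and 2, both of Hist4h4, on chromosome 6. All names are those of the array files, and the RefSeq table gave a current symbol for each of the 49 (Hist3h2ba is now H2bu2).

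Whole blood and the medial prefrontal cortex (mPFC) were sampled from 24 female C57BL/6J mice aged 17 weeks, with 6 mice in each of 4 groups and 1 array per mouse and tissue. Control mice had a sham operation and no stress, and CUMS mice had a sham operation and then chronic ultra-mild stress, a 6-week schedule of changing mild stressors. OVX mice had both ovaries removed and no stress, and OVX+CUMS mice had both. The mice carried no transgene or deletion, and ovariectomy in young adults was the study's stand-in for menopause. The blood of these mice was the spun-down cell pellet, so it held red cells, white cells and platelets together.

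Histones are the proteins that DNA is wound around: H2A, H2B, H3 and H4 form the core of the nucleosome, and H1 binds the linker DNA between nucleosomes. Most genes in these clusters are transcribed in S phase, when new chromatin is made, and their mRNA ends in a conserved stem-loop in place of a poly(A) tail. Some of them also give longer, polyadenylated transcripts, which are known from cells that have left the cell cycle, such as maturing red cells. Labelling here was primed with poly dT, and the array shows only what that priming copied.

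The stem-loop shows where some probes sit, so the bases around it are given for the members that hold it. The core motif, 16 letters long and in capitals below, with any base allowed at the fourth and the thirteenth letter, was found in 5 of the 55681 probes (0.00898%), searched on the probe strand, and all 5 were clustered histone probes. The 30-base stretches are from probes on the mm9 build at chr13:23853756-23853815 on the minus strand (Hist1h3a), chr13:21874784-21874843 on the minus strand (Hist1h3i), chr13:21903960-21904019 on the plus strand (Hist1h4m), chr3:96049949-96050008 on the plus strand (Hist2h2aa1) and chr3:96074056-96074115 on the plus strand (Hist2h2bb).
Hist1h3a: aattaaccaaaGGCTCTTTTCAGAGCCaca
Hist1h3i: ataacaaaaGGCTCTTTTCAGAGCCccctc
Hist1h4m: caactaaaGGCCCTTTTCAGGGCCatccaa
Hist2h2aa1: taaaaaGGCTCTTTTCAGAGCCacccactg
Hist2h2bb: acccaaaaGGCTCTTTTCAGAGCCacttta
Of these 5 probes, Hist2h2aa1 and Hist1h4m were detected in both tissues, Hist1h3i in blood only, Hist2h2bb in mPFC only, and Hist1h3a in neither. A probe was called detected in a tissue when its signal was significant and well above background on all 24 arrays and above 50 intensity units on at least 2.

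Other probes begin far along their transcripts. 15 of the 55 probes began beyond base 500 of the transcript they were designed on, or beyond base 700 for H1, whose coding part is longer. 1 of these 15, at Hist1h2ae, opens with the last 12 letters of the stem-loop motif. The Hist3h2ba probe was one of them, starting at base 551, at chr11:58762964-58763023 on the plus strand of mm9, and it contains AATAAA, the common poly(A) signal, in capitals below. AATAAA or ATTAAA stood in 4 of the 55 members, against 13.7% of all probes.
Hist3h2ba: gttcataatggtattAATAAAtttggttca

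Members resemble each other, which bears on how separately they were measured. 16 of the 55 probes shared a run of at least 20 identical bases with the probe of another clustered histone gene, and 8 of those 16 were H2A probes. The 4 H2A probes that begin at base 333 of their transcripts are given whole, with capitals where a base differs from the Hist1h2af probe. They map on mm9 to chr13:23626113-23626172 on the plus strand (Hist1h2af), chr13:21845304-21845363 and chr13:21878695-21878754 on the minus strand (Hist1h2ak and Hist1h2an) and chr3:96049837-96049896 on the plus strand (Hist2h2aa2).
Hist1h2af: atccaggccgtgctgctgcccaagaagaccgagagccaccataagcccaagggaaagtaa
Hist1h2ak: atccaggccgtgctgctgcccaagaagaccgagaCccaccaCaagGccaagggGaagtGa
Hist1h2an: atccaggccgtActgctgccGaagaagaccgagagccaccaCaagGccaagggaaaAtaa
Hist2h2aa2: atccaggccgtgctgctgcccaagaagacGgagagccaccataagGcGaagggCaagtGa
The other 3 matched the Hist1h2af probe at 55 of 60 bases each, so RNA of one gene may have been read by the probe of another, and the H2A values below are not independent of each other.

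Levels are log2 intensities relative to the 75th percentile of the same array, and a level of 0 is that percentile. That percentile was 54.9 to 192 intensity units in blood and 572 to 689 in mPFC, no spot was saturated, and in blood it moved with the groups, with medians of 110 in control, 90.1 in CUMS, 139 in OVX and 125 in OVX+CUMS mice. The arrays of each tissue filled 3 slides, the first with 6 control and 2 CUMS arrays, the second with 4 CUMS and 4 OVX arrays and the third with 2 OVX and 6 OVX+CUMS arrays. Ovariectomy was therefore nearly confounded with the slide, while CUMS and OVX mice met on 1 slide. Some marker genes set the tissues apart: Cd3g, a subunit of the T-cell receptor complex, was detected on all 24 blood arrays and on none from mPFC. The neuronal genes Gad2 and Stmn2 were detected on all 24 mPFC arrays and none from blood. Other markers, such as Hba-a1 (haemoglobin), the T-cell genes Cd3e and Lck and Snap25 (a synaptic protein), were detected on all arrays of both tissues. The median level of Hba-a1 was 12.2 in blood and 4.17 in mPFC, but that of Snap25 was 7.14 in blood and 6.46 in mPFC.

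Of the 55 probes, 43 were detected in blood, 41 in mPFC and 38 in both. Hist1h2ac, Hist1h2ae, Hist1h2bp, Hist1h3f and Hist1h3i passed in blood alone, and Hist1h1t, Hist2h2ab and Hist2h2bb in mPFC alone. 9 probes passed in neither tissue, among them those of Hist1h1d, Hist1h2bg and Hist1h2bq and the second probes of Hist2h4 and Hist4h4. The counts that follow are over the probes that passed, not over all members.

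The first question was how the levels of these genes differed between the tissues. In a limma fit over 17529 probes that passed in each tissue, with every mouse entered as a random block, 26 of the 38 members were higher in blood and 10 were lower at an adjusted p below 0.05. Over all probes tested 54.7% were higher in blood and 41.8% were lower. The median difference (blood minus mPFC) was 1.21 for the members and 0.43 for all probes. With arrays shifted by their spike-in probes in place of the 75th percentile the split turned to 10 higher and 26 lower, because the median of all probes moved to -1.65, and the members stayed 0.78 above that median, as a constant shift leaves them. With no detection filter the order turned, with a median of 1.29 for the 55 members and 1.5 for all probes. Directions between tissues are therefore relative to the other probes. Blood and mPFC arrays lay on separate slides, so level differences between the tissues cannot be told apart from differences between slides.

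Hist1h4i, an H4 gene, had the largest difference of the 38 probes that passed in both tissues. Its probe at base 574 ran from 3.63 to 4.82 with a median of 4.33 in control blood and from -0.79 to -0.16 with a median of -0.64 in control mPFC. No blood array overlapped an mPFC array in any group, and blood was 4.93 log2 units higher (SE 0.07, adjusted p = 2.65e-46). The other 2 Hist1h4i probes were 4.55 and 3.51 higher in blood, and Hist1h4m, which carries the stem-loop, was 4.66 higher. With the spike-in shift the Hist1h4i probe at base 574 was still 2.85 higher in blood.

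The linker histone Hist1h1c had levels of 4.93 to 5.77 (median 5.58) in control blood and 0.58 to 1.41 (median 1.09) in control mPFC. The difference was 4.49 (SE 0.09, adjusted p = 2.19e-40). For H3, Hist1h3c was at 3.67 to 4.35 in control blood and at -0.32 to 0.12 in control mPFC, 4.07 higher (SE 0.06). For H2B it was Hist1h2ba, best known as the testis form of H2B, that, among these 38, lay furthest above its mPFC level, by 3.38 (SE 0.06), and for H2A it was Hist2h2aa1, by 3.13 (SE 0.07). In each of these 4 genes the groups of the 2 tissues were fully apart.

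Each type also had a member that was lower in blood. Hist3h2ba stood out among them: it lay between 3.33 and 3.72 on all mPFC arrays and between -1.39 and 2.23 on the blood arrays. The difference was -3.43 (SE 0.16), opposite to the other 5 H2B probes, which were 0.86 to 3.38 higher in blood. This value averages all 4 groups, so it includes the blood values after ovariectomy that chose the family, and is given as a description. In control mice alone Hist3h2ba was at -0.58 to 1.97 in blood and at 3.39 to 3.59 in mPFC. Hist2h3c2-ps was 1.29 lower in blood (estimate -1.29), Hist1h2ab 1.06 lower (-1.06) and Hist1h4d 0.86 lower (-0.86). Hist1h1e was lower by 0.18 (estimate -0.18, adjusted p = 0.0314), and that sign did not hold: it was 0.21 with quantile normalization and 0.088 with the percentile taken over detected probes.

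H4 was the type with the most even split, with 5 probes higher in blood, 5 lower and a median difference of 0.03. The median was 1.78 for H1, 1.21 for H2A, 2.55 for H2B and 0.87 for H3. The 10 H2A probes that were higher ranged up to 3.13, and 9 of the 12 members tested that share a 20-base run with another gene were higher in blood. In bulk tissue fewer cells of a type and less RNA per cell cannot be told apart.

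**Figure D1:**
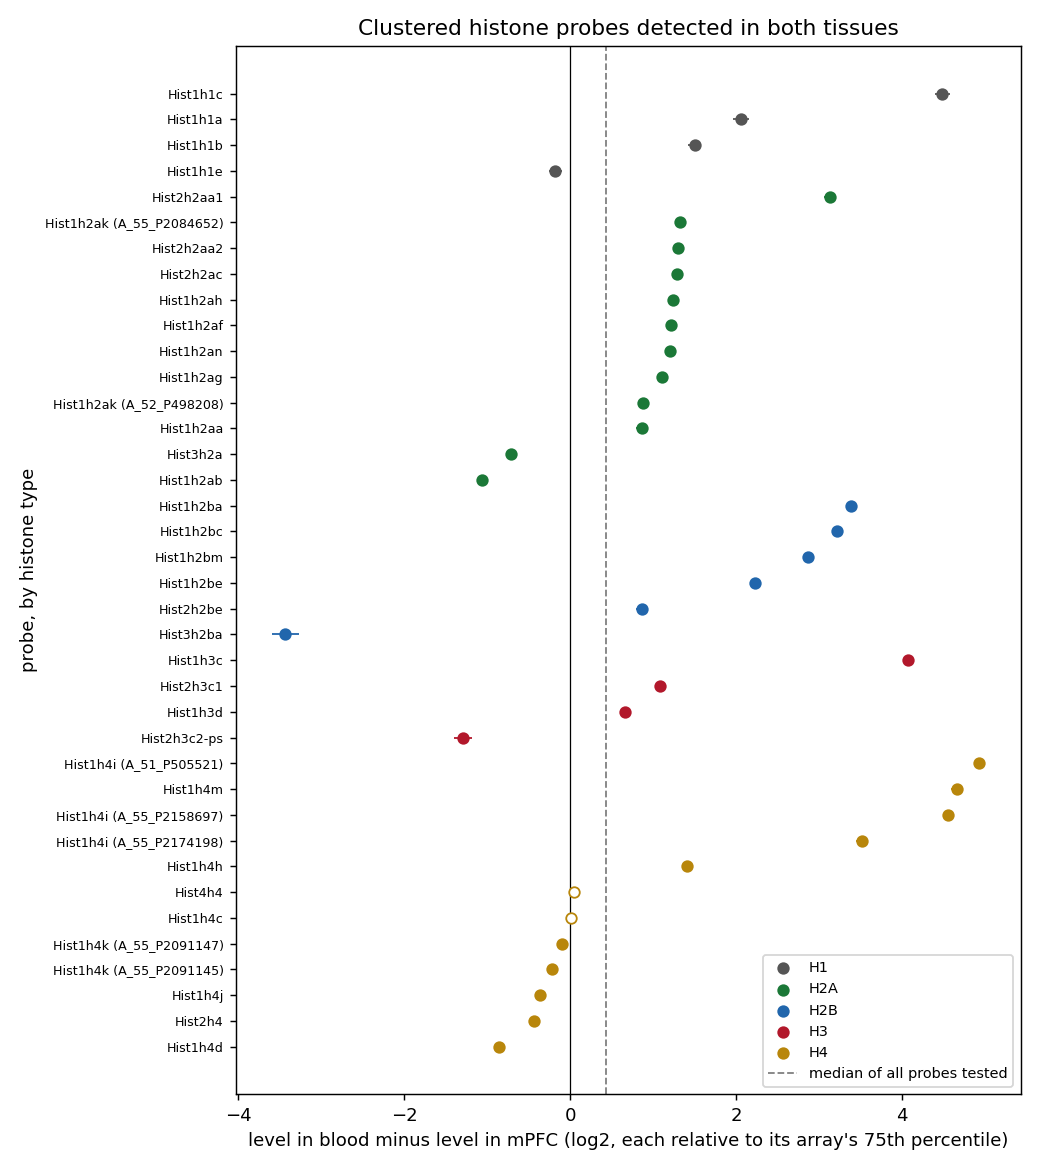
Difference in level between blood and mPFC for the 38 clustered histone probes detected in both tissues, by histone type. Points are limma estimates over 24 mice with their standard errors on the x axis (log2), filled where the adjusted p was below 0.05, and the dashed line is the median of all 17529 probes (0.43). Hist1h4i, Hist1h4m, Hist1h1c and Hist1h3c lie above 4, while Hist3h2ba lies at -3.43.

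The second question was what chronic stress changed in blood. The stress effect is the mean of CUMS minus control and OVX+CUMS minus OVX. Of 43 members, 7 were higher with stress and 6 were lower (limma, adjusted p below 0.05), against 19.1% higher and 29.4% lower over 20748 probes. The number of rises depended on single mice: it was 15 without CUMS mouse 1, 13 without OVX+CUMS mouse 3 and 12 without OVX mouse 4, and 5 to 10 without any other mouse, while the falls stayed at 5 to 8. The median effect was 0.14 for the members and -0.03 for all probes. With no detection filter the medians came together, at 0.14 for the 55 members and 0.13 for all probes. With the spike-in shift 1 member was higher and 10 were lower, the median of all probes then being -0.33, and with normexp background correction 4 were higher and 6 lower.

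Hist1h1a and Hist1h1e, both linker histones, moved in opposite directions. In blood Hist1h1a was at -2.38 to -1.86 (median -2.20) in control mice and at -1.94 to -0.13 (median -1.01) in CUMS mice. In OVX mice it was at -1.59 to -1.05 (median -1.28) and in OVX+CUMS mice at -1.16 to -0.49 (median -0.80). Control mice were the lowest group and met the CUMS mice only at its edge. The stress effect was 0.79 (SE 0.17, adjusted p = 0.0018), and with the slide as a block it was 0.45 (adjusted p = 0.0872), past the threshold no longer.

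Hist1h1e was at 1.68 to 2.52 (median 2.02) in control blood and at 0.94 to 1.41 (median 1.27) in CUMS blood, with no overlap. It was at 1.78 to 2.29 (median 1.87) in OVX mice and at 1.11 to 1.97 (median 1.44) in OVX+CUMS mice, which overlapped. The stress effect was -0.63 (SE 0.10, adjusted p = 0.000716). It was -0.54 with the slide as a block (adjusted p = 0.0116), -0.72 within the first slide and -0.37 within the third.

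The other falls were in H3 and H4. Hist1h3d was at 3.95 to 4.66 (median 4.45) in control, 3.68 to 4.35 (median 3.84) in CUMS, 4.54 to 4.79 (median 4.72) in OVX and 4.03 to 4.63 (median 4.46) in OVX+CUMS blood, an effect of -0.41 (SE 0.09, adjusted p = 0.00217). Hist1h4d had levels of 2.83 to 3.27 (median 3.22) in control, 2.52 to 2.90 (median 2.76) in CUMS, 3.12 to 3.47 (median 3.26) in OVX and 2.81 to 3.09 (median 2.92) in OVX+CUMS blood. OVX and OVX+CUMS mice did not overlap at Hist1h4d, and control and CUMS mice met only through 1 low control array. Its effect was -0.39 (SE 0.07, adjusted p = 0.000771), and both genes kept their calls with the slide as a block (estimates -0.45 and -0.36, adjusted p 0.0133 and 0.0105). Hist1h4j, 1 of the 2 Hist1h4k probes and Hist2h4 were the remaining falls, of -0.26 to -0.18.

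The rises included another H4 gene. At the Hist1h4i probe with no mm9 position in the files, blood levels were 3.98 to 4.52 (median 4.16) in control, 4.2 to 5.02 (median 4.47) in CUMS, 3.19 to 3.84 (median 3.41) in OVX and 3.49 to 4.42 (median 4.02) in OVX+CUMS mice. Stressed mice lay higher at both surgeries, with overlap, and the effect was 0.43 (SE 0.11, adjusted p = 0.00468). Its slide-blocked value was 0.46 (adjusted p = 0.0246). The other 2 Hist1h4i probes gave 0.20 and 0.22, short of the threshold. The spike-in shift lowers all stress estimates in blood alike, these included, and took the median of the members from 0.14 to -0.15.

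Hist1h2bp, an H2B gene, was at 0.38 to 1.27 (median 0.72) in control, 0.52 to 2.04 (median 1.18) in CUMS, -0.21 to 0.49 (median 0.32) in OVX and 0.28 to 0.84 (median 0.64) in OVX+CUMS blood. Stressed and unstressed mice of the same surgery overlapped. Its effect was 0.41 (SE 0.14, adjusted p = 0.0175) and 0.54 with the slide as a block (adjusted p = 0.0288). Hist1h2be, Hist1h3c, Hist1h3i and Hist2h2aa2 were the other rises, of 0.19 to 0.29. The rises rested on the scaling, as only 1 of the 43 members was called higher with the spike-in shift. Within the first and the third slide taken alone, no member passed after adjustment, and 8 and 5 members had an unadjusted p below 0.05.

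By type, the median stress effect in blood was 0.10 for H1, 0.14 for H2A, 0.23 for H2B, 0.27 for H3 and -0.07 for H4. H4 held 4 of the 6 falls and 1 of the 7 rises, and H2A held 1 rise and no fall among 14 probes. Hist2h2aa1, the H2A gene with the largest stress effect among those detected in both tissues, had medians of 5.88 in control, 6.30 in CUMS, 5.66 in OVX and 5.94 in OVX+CUMS blood, in ranges that overlapped throughout, and its effect of 0.25 did not pass. Hist3h2ba had a stress effect of 0.25 (SE 0.32, adjusted p = 0.528), which was 0.90 with the slide as a block (adjusted p = 0.0725), 1.52 within the first slide and 0.29 within the third.

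**Figure D2:**
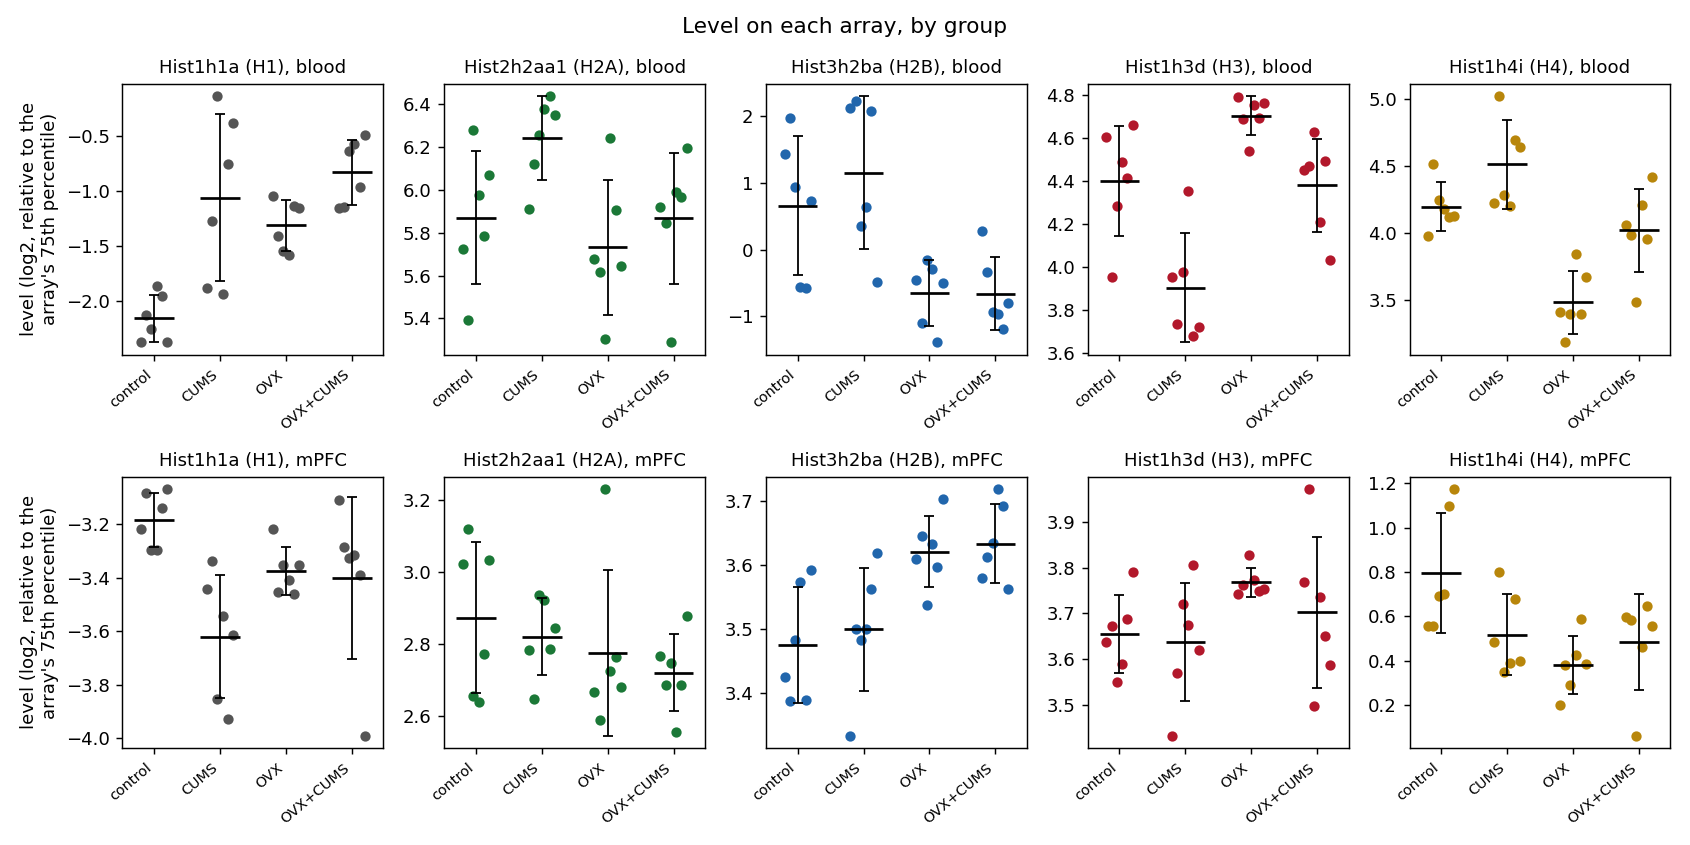
Level on each array for the member of each histone type with the largest stress effect in blood among those detected in both tissues, with the mean and SD of 6 mice per group (y axis, log2 relative to the array's 75th percentile; blood above, mPFC below; the y axes differ between panels). For Hist1h4i the probe with no mm9 position is drawn. Control arrays lie lowest for Hist1h1a in blood (-2.38 to -1.86), and Hist3h2ba spreads widely in control and CUMS blood but stays between 3.33 and 3.72 in mPFC.

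No member passed the test of the interaction of surgery and stress in either tissue. In blood the background was 1.29% of probes with a higher and 0.13% with a lower interaction, and in mPFC 3.42% and 1.1%. By limma, 12 of 43 members in blood and 6 of 41 in mPFC had an unadjusted p below 0.05. In blood, normexp and quantile normalization each called 2 members, and without CUMS mouse 1 there were 6. The median interaction was -0.26 for the members and 0.03 for all probes in blood, and -0.12 and -0.04 in mPFC.

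The ovariectomy effect in blood is the contrast that chose the family. It was called higher for 3 members and lower for 18 of 43, beside 27.4% and 27.7% of all probes. Hist3h2ba, the gene selected on this contrast, was at -0.58 to 1.97 (median 0.83) in control, -0.49 to 2.23 (median 1.35) in CUMS, -1.39 to -0.15 (median -0.48) in OVX and -1.19 to 0.28 (median -0.87) in OVX+CUMS blood. Mice with ovaries spread over more than 2 log2 units and the lowest of them lay within the range of the ovariectomized mice. The estimate was -1.56, the next were -0.60 at the Hist1h4i probe with no mm9 position and -0.55 at Hist1h2bp, and Hist1h1a (0.54), Hist2h2be (0.43) and Hist1h3d (0.39) were the rises. With the slide as a block none of the 20748 probes was called, members included. Of the members, 12 then had an unadjusted p below 0.05, and Hist3h2ba was at -0.24. With the spike-in shift 11 were higher and 1 was lower, the median of all probes then being 0.41 and not 0.04.

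CUMS and OVX mice could be set against each other on the same slide. The groups differ in both surgery and stress, so no difference between them can be assigned to either alone. This comparison uses the OVX mice of the contrast that chose the family, so its values for OVX blood are not independent of that choice. Of 43 members, 23 were higher in CUMS than in OVX blood and 6 were lower (limma, adjusted p below 0.05), against 33.6% higher and 37.9% lower over all probes. Hist3h2ba, whose low OVX values chose the family, is among the 23, and its call supports nothing. The median difference was 0.33 for the members and -0.03 for all probes. On the second slide alone, with 4 mice of each group, 21 members were higher and 3 lower, against 24.4% and 27.8% of all probes. The split rested on the scaling: it was 10 higher and 8 lower with normexp, 15 and 7 with quantile normalization, and 1 and 16 with the spike-in shift, which moved the median of all probes to -0.69 and, being constant within an array, left the members 0.37 above it. That excess was 0.19 with normexp and 0.0019 with no detection filter, where the medians were 0.32 for both the 55 members and all probes.

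Among the H2B probes other than Hist3h2ba, 5 of 6 were higher: Hist1h2bp (0.96), Hist1h2be (0.59), Hist1h2bc (0.55), Hist1h2bm (0.54) and Hist1h2ba (0.52), and each of these 5 passed within the second slide as well, at 0.57 to 0.83. Hist2h2be, the 1 H2B probe that was lower (-0.58), was at -0.36 within that slide and did not pass. The direction of the H2B rises rested on the scaling: over all 7 H2B probes, Hist3h2ba included, the median was 0.54, but -0.11 with the spike-in shift. For Hist3h2ba, whose low OVX values chose the family, the difference was 1.80 (SE 0.45), and 1.14 (SE 0.46) within the slide. These values are a description, and the call of Hist3h2ba among the rises over all mice supports nothing.

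Among the other types, 1 of 4 H1, 8 of 14 H2A, 4 of 6 H3 and 4 of 12 H4 probes were higher in CUMS blood. Over all probes 33.6% were higher, so the H4 share was close to that of the array. Lower were 1 H1, 1 H2A, 1 H3 and 2 H4 probes, beside 37.9% of all probes. At the Hist1h4i probe with no mm9 position, CUMS mice (4.2 to 5.02) and OVX mice (3.19 to 3.84) did not overlap, a difference of 1.03 (SE 0.15, adjusted p = 4.66e-05) and of 1.00 within the slide (adjusted p = 0.00694). The groups did overlap at the other Hist1h4i probes. CUMS mice were at 4.29 to 4.88 and OVX mice at 3.84 to 4.70 at one, and at 2.40 to 2.96 and 2.09 to 2.70 at the other. Hist1h3c, at 3.66 to 4.82 in CUMS and 3.03 to 3.48 in OVX blood, differed by 0.81 (SE 0.15), and Hist1h3i by 0.78 (SE 0.13). The opposite direction was seen for Hist1h3d, at 3.68 to 4.35 in CUMS and 4.54 to 4.79 in OVX blood, with a difference of -0.80 (SE 0.13, adjusted p = 6.28e-05), for Hist1h1e (-0.73) and for Hist1h4d (-0.54). These 3 falls also passed within the slide, at -0.76, -0.81 and -0.57.

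Red-cell markers moved in the same comparison. Of 17 detected probes for 13 erythroid genes, 15 were higher in CUMS than in OVX blood and none was lower, with a median of 0.87, and the mean of the centred levels of this list was 0.12 to 1.12 in CUMS, -0.83 to 0.14 in OVX, -0.40 to 0.79 in control and -0.38 to 0.38 in OVX+CUMS blood. For the 43 histone probes the same mean was -0.03 to 0.32 in CUMS, -0.24 to 0.01 in OVX, -0.22 to 0.18 in control and -0.23 to 0.06 in OVX+CUMS blood. Neutrophil markers were called higher at 2 and lower at 1 of 14 probes, B-cell markers lower at 7 of 11, T-cell markers higher at 2 and lower at 4 of 15, NK-cell markers higher at 1 and lower at 5 of 10, monocyte markers higher at 1 and lower at 2 of 12 and platelet markers higher at 2 of 11. In this comparison 33.6% of all probes were higher and 37.9% lower, and the lists were followed with no other scaling and no slide block. The part of these cell types in the histone values was not tested, nor was that of the lower array percentile in CUMS blood.

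**Figure D3:**
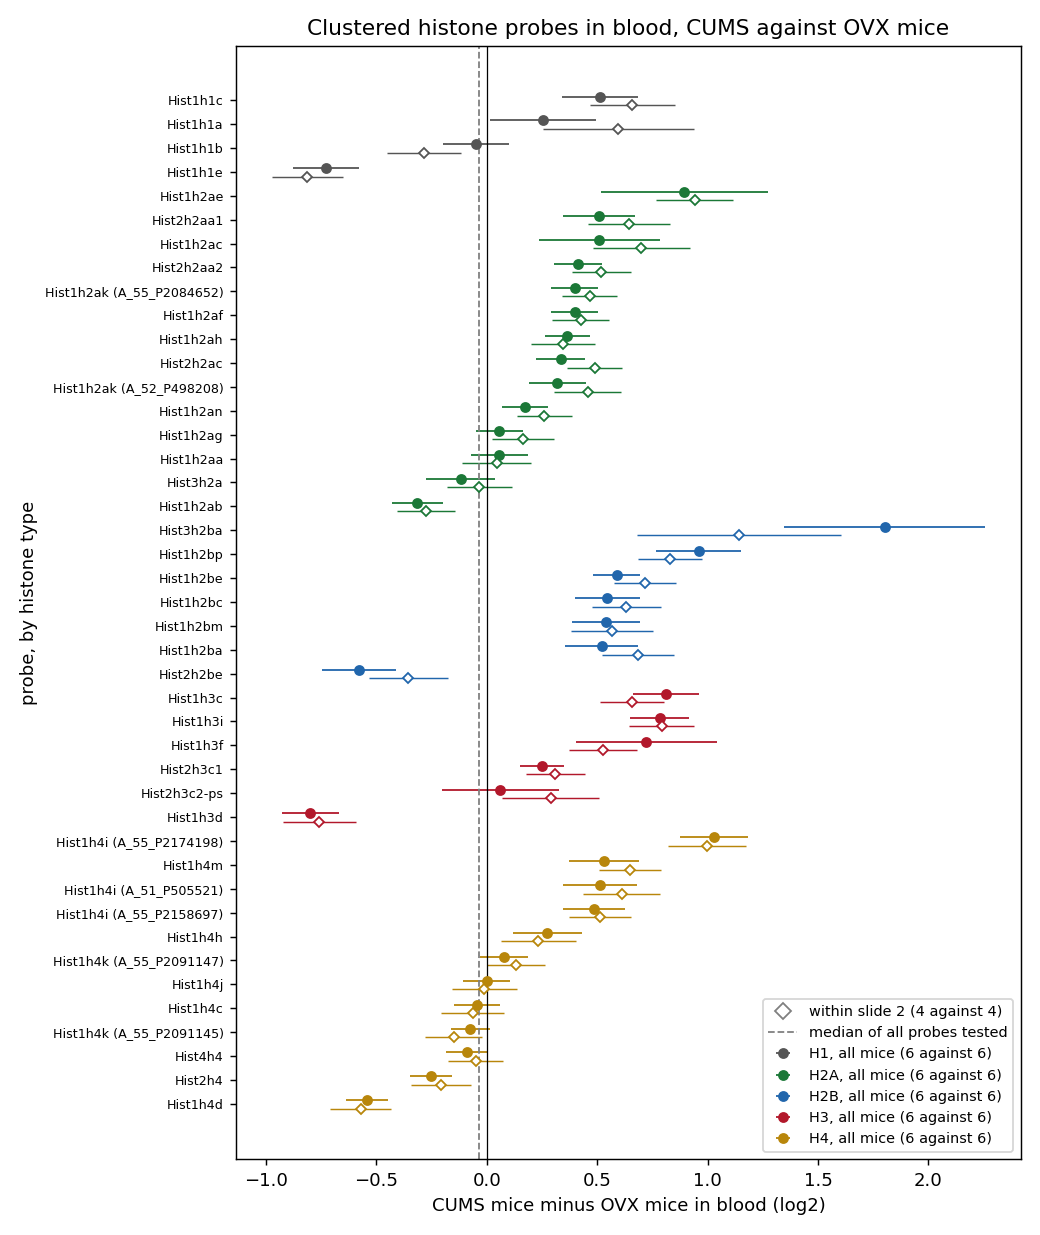
Difference between CUMS and OVX mice in blood for the 43 detected clustered histone probes, by histone type (x axis, log2). Filled circles are limma estimates over 6 mice against 6, open diamonds those within the second slide (4 against 4), bars are standard errors and the dashed line is the median of all probes (-0.03). Most H2A and H2B probes lie to the right of 0 in both, and Hist1h3d, Hist1h1e and Hist1h4d lie to the left.

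In mPFC the effects were smaller. After ovariectomy 8 of 41 members were higher and 5 were lower, close to the 19.3% and 11.7% of all 28353 probes. With the slide as a block none of the 28353 probes was called, members included. With the spike-in shift no member was higher and 16 were lower, the median of all probes moving to -0.12 from 0.05.

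Of the 8 rises, 5 were H2A probes that share sequence: Hist1h2af, Hist1h2ah, Hist1h2ak, Hist2h2aa2 and Hist2h2ac, by 0.15 to 0.18. Hist2h2aa2 was at 5.38 to 5.49 (median 5.41) in control, 5.45 to 5.76 (median 5.72) in CUMS, 5.63 to 5.71 (median 5.66) in OVX and 5.70 to 5.81 (median 5.73) in OVX+CUMS mPFC. Control mice lay below both groups with ovariectomy, and CUMS mice reached the level of the OVX mice. Its effect was 0.18 (SE 0.04, adjusted p = 0.000731) and -0.046 with the slide as a block (adjusted p = 0.911). Hist2h2ac gave 0.18, and 2 H4 genes rose as well, Hist2h4 by 0.23 (SE 0.06, adjusted p = 0.00664) and Hist1h4d by 0.16. Hist3h2ba also rose in mPFC: its levels were 3.39 to 3.59 (median 3.45) in control, 3.33 to 3.62 (median 3.50) in CUMS, 3.54 to 3.70 (median 3.62) in OVX and 3.56 to 3.72 (median 3.62) in OVX+CUMS mice, an effect of 0.14 (SE 0.03, adjusted p = 0.00414), at 0.028 with the slide as a block and -0.027 with the spike-in shift.

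The 5 falls after ovariectomy in mPFC were led by H4 genes. Hist1h4h was at -0.82 to -0.58 (median -0.73) in control and -1.27 to -0.89 (median -1.15) in OVX mPFC, with no overlap, and at -1.16 to -0.57 (median -1.06) in CUMS and -1.32 to -0.96 (median -1.18) in OVX+CUMS mice, which overlapped. The effect was -0.32 (SE 0.07, adjusted p = 0.000989), but 0.13 with the slide as a block. The Hist1h4i probe with no mm9 position (-0.22), Hist1h4c (-0.22), Hist1h3c (-0.21) and Hist1h2be (-0.20) were the others. No other Hist1h4i probe was called here. Beside these changes, 9 of 11 microglial and 2 of 13 neuronal probes were called higher after ovariectomy in mPFC. So were 1 of 11 astrocyte and 1 of 12 oligodendrocyte probes, while 1 microglial and 1 neuronal probe were lower. Over all probes 19.3% were higher and 11.7% lower, and none was called with the slide as a block. The part of these cell types in the histone values was not tested.

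Stress in mPFC raised 6 of 41 members and lowered none, against 2.33% and 1.88% of all probes. All 6 were H2A probes, namely Hist3h2a (0.19), Hist1h2an (0.16), Hist1h2ak (0.15), Hist1h2af, Hist2h2aa2 and Hist2h2ac, and 5 of these share runs of at least 20 bases. The median effect over the 13 H2A probes was 0.15, and 0.035 with the slide as a block. At Hist1h2af the CUMS mice of the first slide were at 5.46 and 5.46, beside 5.36 to 5.50 in control mice, and those of the second slide at 5.75 to 5.83. The adjusted p-values of the 6 were 0.0283 to 0.045, and the count depended on single mice: it was 0 without CUMS mouse 3, 4, 5 or 6, 1 or 2 without any of 13 other mice, and 11 without CUMS mouse 1. No member passed with the slide as a block, where none of the 28353 probes was called, or within the first or the third slide. With the spike-in shift 8 members were lower and none was higher. Between CUMS and OVX mice no member passed in mPFC, where 0.0176% of all probes were higher and 0.155% lower, and 7 members had an unadjusted p below 0.05.

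**Figure D4:**
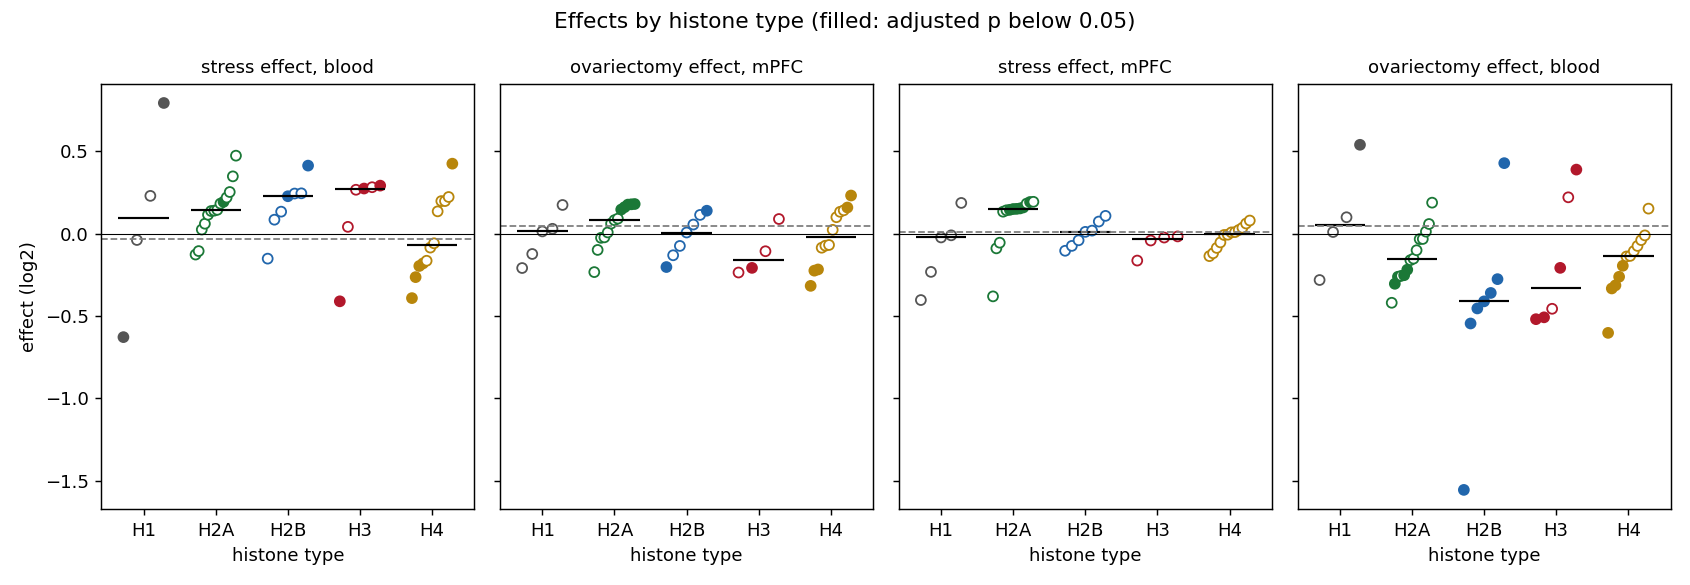
Effects of stress and ovariectomy on the clustered histone probes of each type, in log2 on the y axis, for blood (43 probes) and mPFC (41 probes). Each point is 1 probe, filled where the adjusted p was below 0.05, the black line is the median of the type and the dashed line that of all probes. The mPFC effects stay between -0.40 and 0.23, and the right panel is the contrast that chose the family, with Hist3h2ba at -1.56.

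The stress effect was set against itself in the 2 tissues by a test of the difference in the joint fit. It was larger in blood for 4 of 38 members and smaller for 6, against 17.6% and 33.8% of 17529 probes. Hist1h1a differed most, by 1.03 (SE 0.19, adjusted p = 0.000128), followed by the Hist1h4i probe with no mm9 position (0.51), Hist1h3c (0.46) and Hist2h2aa1 (0.31). Hist1h1e (-0.61), Hist1h4d (-0.41), Hist1h3d (-0.37), Hist1h2ab (-0.32), Hist3h2a (-0.30) and Hist2h4 (-0.27) differed the other way. The ovariectomy effect in blood minus that in mPFC contains the contrast that chose the family: 3 members were called higher and 15 lower, beside 19.7% and 19.4% of all probes. With the slide as a block none of the 17529 probes was called for it, members included.

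Genes that make, store and process histones were followed as lists. Replacement histones, which sit outside the clusters and have polyadenylated mRNA, were lower with stress in blood at 6 and higher at 2 of 16 probes (median -0.20), led by H3f3b, which encodes H3.3, at -0.55 (SE 0.13, adjusted p = 0.00283). Genes for processing histone mRNA were lower with stress at 13 of 20 probes and higher at none (median -0.32), such as Zcchc11, a uridylyl transferase, at -0.54. Histone chaperones, which hand histones to DNA, were lower at 19 and higher at 2 of 28 probes (median -0.36), including Chaf1b of the CAF-1 complex at -0.45 and Npm1 at -0.43. These shares stand beside 19.1% of all probes higher, 29.4% lower and a median of -0.03.

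Genes of S phase and the cell cycle were lower with stress in blood at 12 and higher at 7 of 22 probes (median -0.26). Ccna2, a cyclin of S phase and G2, was higher (0.59, SE 0.13, adjusted p = 0.00184) and Mcm3 of the replicative helicase was lower (-0.57). In mPFC these 4 lists were called at 1 to 3 probes each under stress, of 21 to 36 detected. Erythroid markers in blood were higher with stress at 11 of 17 probes (median 0.35) and lower at none. Stress lowered 7 of 11 B-cell, 9 of 15 T-cell and 7 of 10 NK-cell probes and raised none of them, and it raised 2 of 14 neutrophil and 1 of 12 monocyte probes, lowered 2 monocyte probes and called none of 11 platelet probes. Under stress 19.1% of all probes were higher and 29.4% lower in blood, and 2.33% and 1.88% in mPFC. The lists were followed with no other scaling and no slide block. The part of these shifts in the stress effects on the histone probes was not tested.

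The promoters of the members share sequence that the rule did not use. RefSeq promoters (build GRCm38.p6, 250 bases before and 50 after the start) were held for 43 of the 49 genes, 44 in all. CCAAT, on either strand, stood in 38 of 44, against 37.4% of all 32851 promoters, but in 2 of 8 H4 promoters. TATAAA stood in 26 of 44, against 13.6%. The octamer ATGCAAAT, a site class of octamer factors, stood in 7 of 14 H2A and 6 of 10 H2B promoters and in none for H1, H3 and H4, against 1.74% of all promoters. The 180 bases before the start are given for 4 named members, with matches to the 3 motifs on either strand in capitals. They lie at chr11:58948731-58948910 on the plus strand (Hist3h2ba), and on the minus strand at chr13:23934157-23934336 (Hist1h2ba), chr13:23745522-23745701 (Hist1h3c) and chr13:22041363-22041542 (Hist1h4i).
Hist3h2ba: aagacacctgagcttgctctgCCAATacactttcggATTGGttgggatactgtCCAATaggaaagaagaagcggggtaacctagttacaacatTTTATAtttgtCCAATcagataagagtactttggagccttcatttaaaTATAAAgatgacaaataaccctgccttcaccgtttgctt
Hist1h2ba: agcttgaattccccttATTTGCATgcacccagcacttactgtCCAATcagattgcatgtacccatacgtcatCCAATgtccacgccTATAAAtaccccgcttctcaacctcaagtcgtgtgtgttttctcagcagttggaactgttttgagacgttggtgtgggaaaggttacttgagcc
Hist1h3c: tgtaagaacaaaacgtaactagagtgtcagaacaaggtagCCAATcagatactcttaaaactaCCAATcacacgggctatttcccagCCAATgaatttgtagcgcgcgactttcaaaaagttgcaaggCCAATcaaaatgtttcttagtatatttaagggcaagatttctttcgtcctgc
Hist1h4i: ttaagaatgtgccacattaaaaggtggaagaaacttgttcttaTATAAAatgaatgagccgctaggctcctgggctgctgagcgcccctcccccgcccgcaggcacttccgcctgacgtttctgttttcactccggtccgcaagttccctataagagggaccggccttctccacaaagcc
Hist3h2ba and Hist1h3c hold 4 CCAAT matches each in this stretch, Hist1h2ba holds 2 and the 1 octamer, and Hist1h4i holds none of either. These are matches of letters and were set against no measure of binding.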

How the data were processed

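RNA of blood and mPFC was measured on 48 one-colour Agilent arrays. The authors read the intensity of spots in Feature Extraction (version 10.7.3.1 in the headers), with its spatial and multiplicative detrending on. The log2 values of the deposited normalized table were made by the authors with a shift to the 75th percentile of each array. For 55249 single-spot probes, 100.0% of that table's values lay less than 0.001 from those recomputed once the median offset of each array was removed, and it served as an alternative. Spots marked as outliers were left out. Probe positions are on mm9, per the file headers.

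The log2 intensity minus each array's 75th percentile was fitted with limma 3.58.1 (R 4.3.3, statmod 1.5.0; tables and figures in Python) on 20748 probes detected in blood and 28353 in mPFC, with surgery, stress and their interaction, moderated spread (prior degrees of freedom 4.02 and 2.57), two-sided tests, and p-values adjusted by Benjamini-Hochberg over all probes at 0.05. Tissues were compared on 17529 probes in 1 fit with a random mouse term (correlation 0.0589), since the labels pair blood and mPFC of a mouse. Equal replicate numbers in different groups are different mice. On simulated data with changes of 1 log2 unit the fit recovered 96.5% for ovariectomy and 91% for stress in blood and 98% and 99% in mPFC. The simulation held no slide effect and no smaller changes, so it does not give the recovery of the smaller effects reported here. Array number and signal over background limit the precision.

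The members, gene lists and tests were chosen with earlier results of these data known. Named are Hist3h2ba, for each effect and tissue the 3 largest rises and 3 largest falls past the threshold, the member of each type that differed most between tissues in each direction, and 1 member of each type for values by group; genes outside the family were named from the list members with the largest effects. Members named for CUMS against OVX mice were chosen after their values were seen. Alternatives were normexp (offset 50), quantile normalization, the percentile over detected probes, a spike-in shift, all probes unfiltered, a filter over all 48 arrays, the authors' table, no moderation, averaged probes, slide or replicate blocks, single slides and leaving out each mouse. Hybridization to near-identical copies was not modelled.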

Additional observations from a re-analysis of the deposited data

Results flagged for a closer look

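Among 180 groups of 6 arrays of the named members, 23 had 1 array far from the other 5 by Dixon's ratio (the gap to the nearest array over the whole range), where chance gives about 1 in 20. Control mouse 2 was the lowest in blood for Hist1h2ba (ratio 0.671), Hist1h1c (0.693), Hist3h2a (0.771), Hist2h4 (0.811), Hist1h4d (0.875) and Hist2h2be (0.900). CUMS mouse 1 was the lowest in blood for the H2A probes of Hist1h2ak (0.734), Hist2h2aa2 (0.762) and Hist2h2ac (0.630), which share sequence. Other low blood arrays were OVX+CUMS mouse 3 for the Hist1h4i probe at base 574 (0.913) and OVX mouse 5 for Hist1h2bp (0.664), and OVX mouse 5 was high for Hist1h4h (0.654).

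In mPFC, OVX+CUMS mouse 6 was the lowest for Hist1h1a (0.682), Hist1h4c (0.652) and Hist2h4 (0.708), and OVX+CUMS mouse 3 for Hist3h2a (0.647) and the Hist1h4i probe with no mm9 position (0.685). OVX mouse 3 was the highest for Hist2h2aa1 (0.727), Hist1h3d (0.651) and Hist2h3c2-ps (0.754) and the lowest for Hist1h3c (0.633). Control mouse 2 was high for the Hist1h4i probe at base 574 (0.701) and control mouse 4 for Hist2h2ac (0.666).

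The stress effect differed between blood and mPFC in the joint limma fit (blood minus mPFC, log2) for Hist1h1a (1.026), the Hist1h4i probe with no mm9 position (0.5118), Hist1h3c (0.4552), Hist2h2aa1 (0.3078), Hist2h4 (-0.2737), Hist3h2a (-0.2982), Hist1h2ab (-0.3205), Hist1h3d (-0.3693), Hist1h4d (-0.4137) and Hist1h1e (-0.6055). The ovariectomy effect, which includes the contrast that chose the family, differed for Hist1h1a (0.5262), Hist2h2be (0.5028), Hist1h3d (0.3002), Hist2h4 (-0.2421), Hist1h3c (-0.3116), Hist2h2ac (-0.332), the same Hist1h4i probe (-0.3779), Hist1h2ba (-0.3901), Hist2h2aa2 (-0.3973), Hist1h2ak (-0.4229) and Hist3h2ba (-1.696).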

How the results depend on the processing

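Counts here are member probes called in either direction. With the slide as a block 0 were called for ovariectomy in blood, in mPFC and in their difference, and 0 for stress in mPFC. For these contrasts no other probe tested was called either. The slide block gave 3 for the tissue difference in the stress effect, and within the first and the third slide 0 were called for stress in either tissue. The spike-in shift gave 12 for ovariectomy in blood, 17 for CUMS against OVX blood and 6 for the tissue difference in the stress effect. Normexp gave 2 for the blood interaction, 18 for CUMS against OVX blood and 11 for the tissue difference in the ovariectomy effect. Quantile normalization gave 2 for the blood interaction, 3 for stress in mPFC and 1 for the mPFC interaction. With no detection filter 8 were called for stress in blood and 0 for stress in mPFC. Why these counts moved was not tested.

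Leaving out 1 mouse at a time gave 17 to 25 for ovariectomy, 11 to 21 for stress, 0 to 6 for the interaction and 24 to 30 for CUMS against OVX mice in blood. In mPFC it gave 10 to 18, 0 to 11, 0 to 3 and 0 to 0. For the tissue differences it gave 14 to 19 in the ovariectomy effect, 8 to 12 in the stress effect and 34 to 37 in the level. The 21 for stress, the 6 for the interaction in blood, the 11 for stress in mPFC and the 3 for its interaction each came without CUMS mouse 1. Among the values of named members, 68 of those refits lost a call, 4 gained one and 0 changed sign.

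The values of named members cover the effects each was named for, and hold CUMS against OVX mice for Hist3h2ba alone. Of these 41 values, 34 of them called, the following changed sign. With the slide as a block the ovariectomy effect was -0.14 for Hist1h1a and -0.020 for Hist2h2be in blood, and -0.046 for Hist2h2aa2, -0.061 for Hist2h2ac and 0.13 for Hist1h4h in mPFC. The blood minus mPFC level of Hist1h1e was 0.21 with quantile normalization and 0.088 with the percentile over detected probes, and the ovariectomy effect on Hist3h2ba in mPFC was -0.027 with the spike-in shift. The authors' table and averaged probes changed no call of these values. Same-numbered mice of different groups deviated together with correlations of -0.508 to 0.488 in blood and -0.23 to 0.391 in mPFC, so the number was not taken to pair them. A fit with the replicate number as a block changed the call of none and gave 19 member probes in place of 21 for ovariectomy in blood. Members below detection, 12 in blood and 14 in mPFC, have no value here.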
